A study of Mus musculus with 48 samples.

Results

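The comparison described here sets 4 bleomycin-exposed mice given 3G9 against 3 saline-exposed mice, in whole lung RNA of the batch labelled S151. Its 7 libraries are all those the labels place in that batch, compartment and pair of arms, out of 48 libraries in the series. The study exposed mice to saline or bleomycin, treated some of them with KIRA8 or 3G9, and prepared a whole lung and an epithelial library from each mouse. RNA bound to tagged ribosomes was pulled down with an anti-HA antibody and sequenced by QuantSeq Forward, which reads the 3′ ends of transcripts.

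All mice carried the ribosome tag, and the labels describe every library as RNA from tagged ribosomes. The same anti-HA step is recorded for whole lung and for epithelium, and how the preparation of the whole lung libraries differed is not stated in the sources used here. The saline mice (207 and 221, male, and 230, female) received the control treatment Axum8, whose nature the labels do not explain. The bleomycin mice given 3G9 were 218, 219 and 228, male, and 226R, female. A second bleomycin arm of the same batch received Axum8 and stands beside the results as the bleomycin control (204, 206 and 208R, male, and 225, female). Ages, strain, doses, the time of collection and the promoter driving the tag are not stated by the labels. The mice are separate animals by their identifiers, so the p-values set the differences between arms against the spread between mice of 1 batch.

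Bleomycin injures the alveolar epithelium and is widely used to produce inflammation and scarring in the mouse lung. Integrin αvβ6, carried by epithelial cells and increased on injury, frees the growth factor TGFβ from its latent complex, and TGFβ drives fibroblasts to deposit collagen matrix. The antibody 3G9 binds αvβ6 and blocks that activation. Genes that differ between the 3G9 arm and saline therefore describe bleomycin and 3G9 together, against saline with Axum8. No saline mice were given 3G9. A bleomycin response that remains under the block and an effect of the antibody itself therefore cannot be told apart. The bleomycin control arm gives the bleomycin response without the block. In bulk lung RNA, fewer cells of a type and less RNA per cell cannot be told apart.

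The deposited table names genes by Ensembl identifier only and does not pair them with symbols, and none of the identifiers matched the gene table used here. Fibrotic and immune genes could therefore not be picked out by name, nor could tissue markers be looked up. The response was described instead through gene groups defined in other mice of the series, by expression level and by individual mouse. Genes are printed by identifier, with at most 2 in each direction of a comparison.

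The 11 whole lung libraries of the batch held between 25945089 and 36945995 gene counts. Levels are given as CPM, a gene's counts scaled to a common library size with edgeR's TMM factors. Genes at least 2-fold more abundant in epithelium than in whole lung of the saline mice of batch S135 served as a check of the compartment. They took 16.7% to 36.5% of the counts in these whole lung libraries and 48.3% to 66.6% in the epithelial libraries of the same mice, without overlap. Genes depleted from epithelium to the same degree took 16.9% to 23.4% of whole lung counts and 2.31% to 4.63% of epithelial counts. Saline mouse 221 stood apart within its arm. Its 10 most abundant genes held 28.7% of its counts, against 16.2% and 11.7% in the other saline mice and 8.78% to 12% in the bleomycin-exposed mice of both arms. The 3G9 library of mouse 218 had the lowest median correlation with the other 10 libraries, at 0.953, against 0.967 to 0.981 for the rest. Its column carries a suffix, FT, that the labels do not explain.

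**Figure D1:**
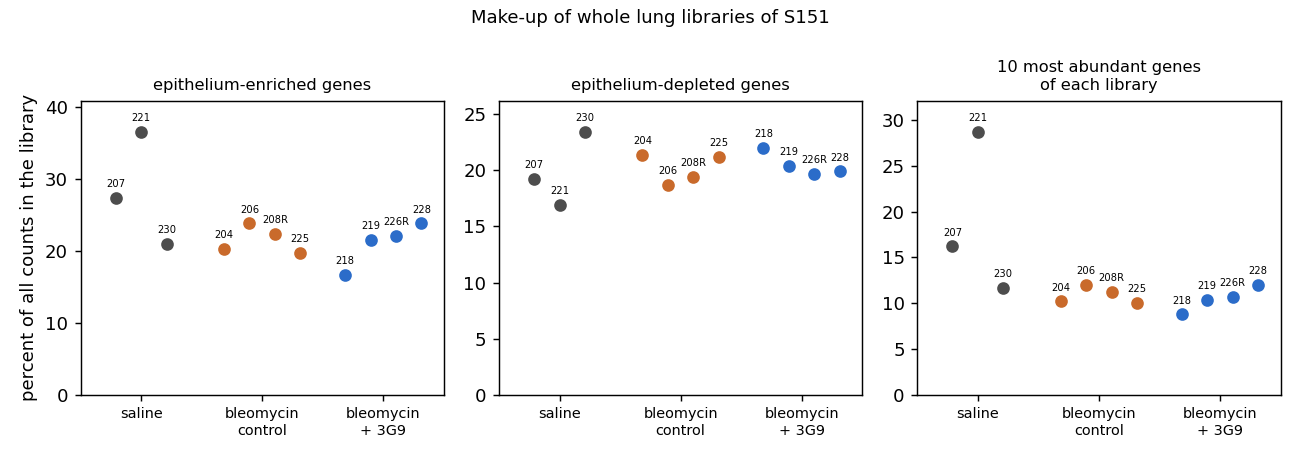
Share of each whole lung library of batch S151 taken by epithelium-enriched genes, by epithelium-depleted genes and by that library's 10 most abundant genes (y axes, percent of all counts, from 0), by arm, with 1 point per mouse and its identifier above it. Saline mouse 221 has the highest share of epithelium-enriched genes (36.5%) and of its top 10 genes (28.7%), and 3G9 mouse 218 has the lowest of both (16.7% and 8.78%).

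Whole lung of the 3G9-treated mice differed widely from saline, and most of the genes called in edgeR were higher. Of 17437 genes tested, 953 were higher and 280 lower with bleomycin plus 3G9 (edgeR quasi-likelihood test, Benjamini-Hochberg adjusted p under 0.05), so 7.07% of genes passed, 5.47% higher and 1.61% lower. The higher genes also moved further. Their median log2 fold change was 1.44, against -0.84 for the lower genes, and the median over all genes was -0.03. Called or not, 8226 genes had a positive fold change and 9211 a negative one. A difference of at least 2-fold was reached by 658 higher and 95 lower genes, of at least 4-fold by 272 and 18, and of at least 8-fold by 106 and 7. In 928 of the 953 higher genes every 3G9 mouse was above every saline mouse, and in 264 of the 280 lower genes every one was below. Over all genes tested, such separation occurred for 12% upward and 9.32% downward.

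The number of genes called rested on single libraries. The excess of higher genes was kept with another normalisation but not with limma. Without saline mouse 207 the count fell to 250 genes and without saline mouse 221 to 272. Leaving out 3G9 mouse 219 gave 541 genes, 3G9 mouse 218 gave 701, and bleomycin control mouse 208R, which shares only in the estimate of spread, gave 738. Without 3G9 mouse 228 the count was 2255. With size factors by relative log expression it was 1204, of which 76.7% were higher, against 77.3% with the default scaling. DESeq2 called 2557 genes, 65.4% of them higher, and limma with library weights called 6174, of which 48.6% were higher.

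**Figure D2:**
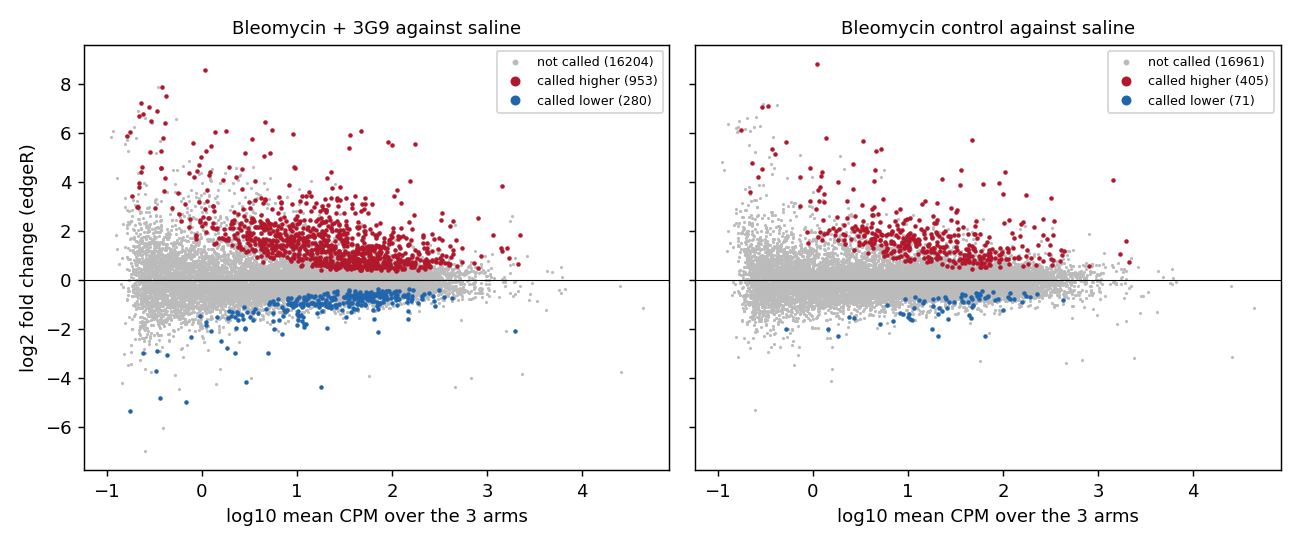
log2 fold change against saline (y axis) by log10 of the mean CPM over the 3 arms (x axis) for all 17437 genes, with bleomycin plus 3G9 at left and the bleomycin control at right. Red points are genes called higher and blue points genes called lower at an adjusted p under 0.05. Red points outnumber blue at left (953 and 280) and at right (405 and 71).

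Higher genes were found in every class of expression, and made up the smallest share in the scarcest. By mean CPM over the 11 libraries, 1.6% of the 2556 genes under 1 CPM were called higher, 6.26% of the 4119 genes from 1 to 10 CPM, 5.83% of the 8713 genes from 10 to 100 CPM and 7.13% of the 2049 genes at 100 CPM or more. Lower genes made up 0.352%, 1.53%, 1.96% and 1.81% of the same classes. The size of the difference among called genes fell with abundance, from a median absolute log2 fold change of 4.19 under 1 CPM to 0.85 at 100 CPM or more. Small differences pass a test more easily in abundant genes, so these medians describe the called genes and not the classes.

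**Figure D3:**
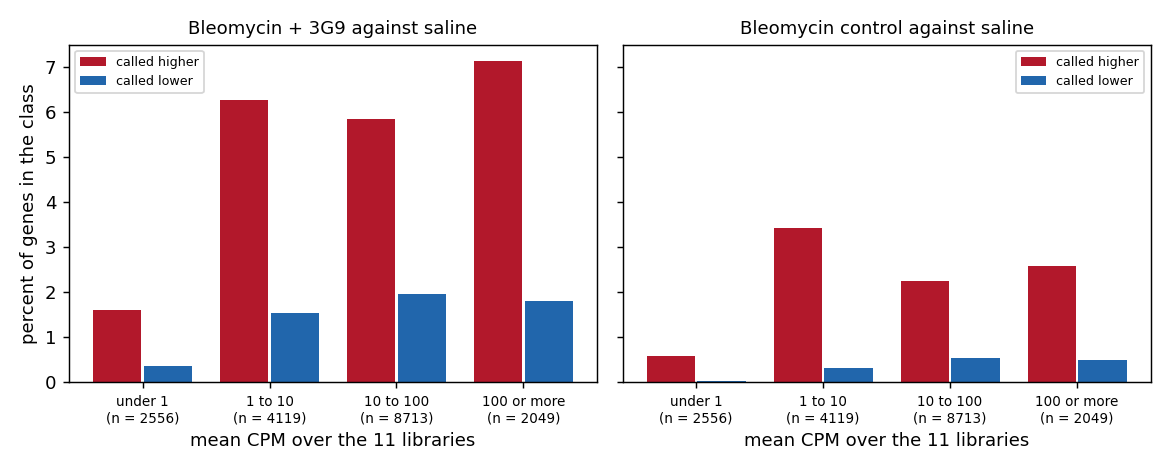
Percent of tested genes called higher (red bars) and lower (blue bars) against saline in each class of mean CPM over the 11 libraries (x axis, with the number of genes), for bleomycin plus 3G9 (left) and for the bleomycin control (right). In each class the bar of higher genes is the taller, from 1.6% against 0.352% in the scarcest class to 7.13% against 1.81% in the most abundant with 3G9.

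Some genes had no count at all in saline lung. Among the 953 higher genes, 11 were without a read in each of the 3 saline mice, and each of the 11 had counts in the bleomycin control arm. In 9 of the 11, the mean level in the bleomycin control was at or above 50% of that with 3G9. A gene without saline counts passes the filter on low counts only through the bleomycin-exposed mice. Counts in those arms are therefore partly fixed by the filter, and these numbers are a description. The share of all tested genes without a saline count is not given here. Taking 3 counts over the saline libraries as the limit, the largest of these differences was at least 49.8-fold and the smallest at least 7.53-fold. Only 1 of the lower genes had no count in the 3G9 arm.

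The 4 mice given 3G9 did not contribute equally. Mouse 218 had the highest value of the arm in 723 of the 953 higher genes, mouse 219 in 129, mouse 228 in 58 and mouse 226R in 43. Mouse 228 had the lowest value in 571 of them. The median difference from the saline mean, on the log2 scale of CPM plus a pseudocount of 0.5, was 1.67 in mouse 218, 1.23 in mouse 219, 1.07 in mouse 226R and 0.83 in mouse 228. Among the 280 lower genes mouse 218 was the lowest in 207, and the medians were -1.14, -0.81, -0.64 and -0.66 in the same order. Mouse 218 is also the library with the smallest share of epithelium-enriched genes, at 16.7% of counts against 21.5% to 23.8% in the other 3G9 mice. The part of that share in the result was not tested.

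The largest called differences were taken from genes separated completely between the arms and reaching at least 5 CPM in the arm where they were higher. Of the 10 such genes with the largest increase, with log2 fold changes from 5.41 to 6.47, 8 were also called higher in the bleomycin control, where all 10 lay between 2.29 and 5.75 and 2.32% of all genes were called higher. Of the 10 with the largest decrease, from -4.37 to -1.91, 3 were also called lower in the bleomycin control, where the 10 lay between -2.26 and -0.64 and 0.407% of all genes were called lower. The genes were taken for their distance from the 3 saline mice that both comparisons share, so these counts are a description and not separate support.

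ENSMUSG00000085295 had the largest increase of this set. It measured 0.127, 0.138 and 0.0546 CPM in saline mice 207, 221 and 230, and 22.0, 8.44, 5.12 and 2.72 CPM in 3G9 mice 218, 219, 226R and 228. The lowest 3G9 mouse was well above the highest saline mouse, and the log2 fold change was 6.47 ± 0.93 (SE; adjusted p = 0.00324, edgeR). The bleomycin control mice measured 3.15, 1.5, 4.42 and 7.46 CPM, within and around the 3G9 range.

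ENSMUSG00000060183 followed, at a log2 fold change of 6.15 ± 1.67 (SE, n = 4 and 3; adjusted p = 0.047, edgeR). Its levels were 0.0317, 0.138 and 0.328 CPM in saline and 33.2, 9.72, 4.44 and 2.29 CPM with 3G9, again without overlap. The bleomycin control mice were spread over a larger ratio of highest to lowest than the 3G9 mice, at 1.0, 0.0898, 1.03 and 13.9 CPM. This call was lost in 8 of the 11 fits that left out 1 library, among them those without 3G9 mouse 218 (4.97, adjusted p = 0.107), 3G9 mouse 219 (6.24, adjusted p = 0.0855), 3G9 mouse 226R (6.43, adjusted p = 0.0511), and each saline mouse (5.66 to 7.15, adjusted p from 0.0849 to 0.174), and without bleomycin control mouse 204 (adjusted p = 0.0582) or 208R (adjusted p = 0.0638). It was also lost without the filter on low counts (adjusted p = 0.151).

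ENSMUSG00000061397 had the largest decrease of the set. It fell from 39.1, 60.6 and 22.9 CPM in saline to 1.74, 0.906, 1.88 and 3.46 CPM with 3G9. The fitted change was -4.37 ± 0.45 (SE, log2; adjusted p = 0.000632, edgeR). The bleomycin control mice, at 5.97, 14.1, 11.6 and 9.87 CPM, lay between the other arms without overlapping either. Against saline the control arm differed by -1.98 ± 0.41 (SE; adjusted p = 0.0254), and the 3G9 arm differed from the control arm by -2.39 ± 0.41 (SE; adjusted p = 0.159), which did not pass.

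ENSMUSG00000072601 was the next. Its levels were 6.38, 7.58 and 5.08 CPM in saline and 0.330, 0.281, 0 and 0.815 CPM with 3G9, and the fitted change was -4.16 ± 0.69 (SE, log2; adjusted p = 0.00605, edgeR). The bleomycin control mice measured 1.14, 2.10, 2.89 and 2.02 CPM and again lay between the arms.

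**Figure D4:**
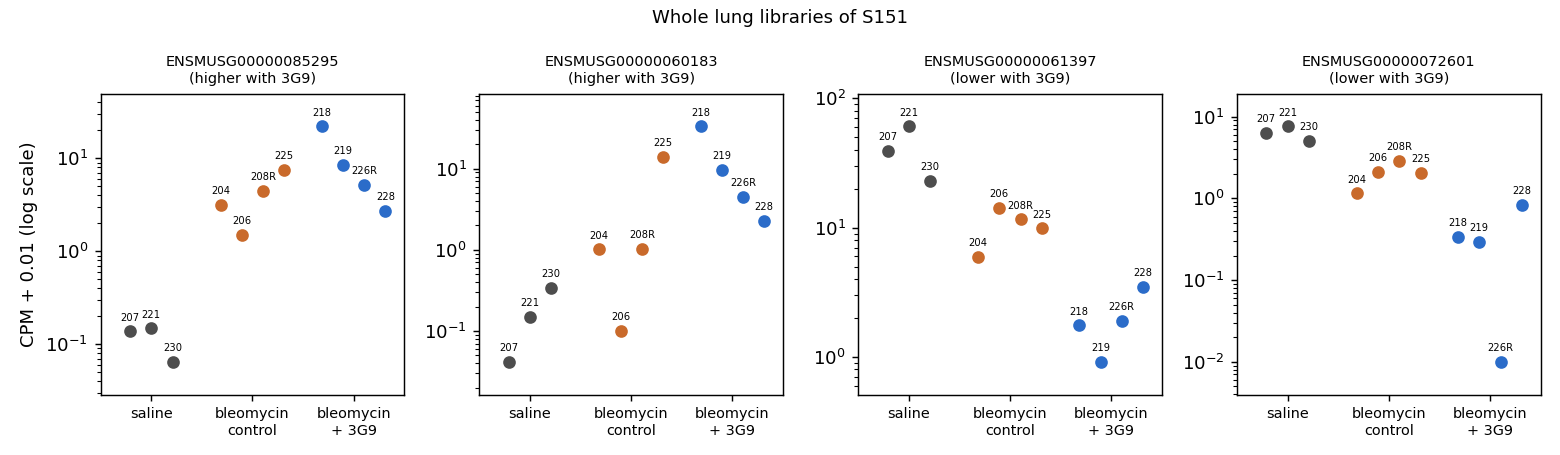
CPM plus 0.01 on a log axis (y axis) in each whole lung library of batch S151, by arm, for the 2 genes with the largest increase and the 2 with the largest decrease among called genes separated completely between 3G9 and saline and at 5 CPM or more in the higher arm, with 1 point per mouse and its identifier above it. The 3G9 and saline points do not overlap in any of the 4 genes, and the point at 0.01 for ENSMUSG00000072601 is 3G9 mouse 226R with no count.

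The bleomycin control arm gave the response without the block, measured against the same 3 saline mice. In that arm 405 genes were higher and 71 lower of the same 17437, so 2.73% passed, 2.32% higher and 0.407% lower. The median log2 fold change of the called genes was 1.57 upward and -0.86 downward, and 316 higher and 29 lower genes differed by at least 2-fold. At an unadjusted p under 0.05 there were 3423 genes in this comparison and 4795 with 3G9. The larger count with 3G9 is no test of a difference between the treatments, since both comparisons rest on the same saline libraries and their counts move with single mice. Without saline mouse 207 the control arm gave 87 genes, without 221 98, without control mice 204, 208R and 225 it gave 233, 203 and 194, and without 3G9 mice 218 and 219 it gave 973 and 317.

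Set directly against each other, the treated arms gave no called gene in edgeR. None of 17437 passed (0%), and the smallest adjusted p was 0.159. At an unadjusted p under 0.05 there were 1074 genes, where 5% of the genes tested is 872. The count depended on the tool. DESeq2 called 80 genes higher and 40 lower with 3G9, and limma with library weights called 242 and 119. An edgeR fit of all 24 whole lung libraries with a term for batch called 32 and 6. That fit joins control mice of S135, given vehicle, to those of S151, given Axum8. It also holds the bleomycin control mice of S061 and the KIRA8 mice of S061 and S135. Leaving out bleomycin control mouse 225 from the S151 fit gave 1 gene. The median half-width of the unadjusted 95% confidence interval was 0.47 on the log2 scale. Adjusted over all genes, differences well above that also did not pass.

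The genes with the smallest p in that direct comparison are given as measured, since none passed in edgeR. ENSMUSG00000094356 measured 3.12, 3.03, 2.32 and 1.40 CPM with 3G9 and 0.434, 0.150, 0.156 and 0.161 CPM in the bleomycin control, without overlap. The difference was 3.42 ± 0.49 on the log2 scale (SE; 95% interval 2.35 to 4.50), and the saline mice, at 0.286, 0.310 and 0.628 CPM, were nearer to the control arm. ENSMUSG00000020641 showed a graded order. It stood at 12, 14.1 and 13.0 CPM in saline, 37.3, 22.6, 30.7 and 48.4 CPM in the bleomycin control and 114.9, 73.0, 109.2 and 75.7 CPM with 3G9, and no mouse overlapped another arm. The difference between the treated arms was 1.42 ± 0.22 (SE; 95% interval 0.937 to 1.91). Both genes were called higher against saline with 3G9, at 2.58 ± 0.52 (SE; adjusted p = 0.0148, edgeR) and 2.84 ± 0.26 (SE; adjusted p = 0.000305, edgeR).

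Downward, ENSMUSG00000029675 had the larger difference. The 3G9 mice measured 185.6, 225.3, 302.2 and 152.4 CPM and the bleomycin control mice 805.5, 450.9, 921.5 and 1337 CPM. The arms did not overlap, and the difference was -2.02 ± 0.34 (SE; 95% interval -2.76 to -1.28). The saline mice, at 287.3, 291.8 and 560.8 CPM, overlapped the 3G9 mice, which differed from them by -0.81 ± 0.35 (SE; adjusted p = 0.159, edgeR), while the control arm stood at 1.21 ± 0.37 above saline (SE; adjusted p = 0.103, edgeR). ENSMUSG00000038400 differed less, at -0.72 ± 0.12 (SE; 95% interval -0.974 to -0.460). Its 3G9 levels were 72.9, 74.6, 92.2 and 74.7 CPM, against 127.5, 113.9, 131.4 and 143.9 CPM in the control arm and 109.2, 100.3 and 122.2 CPM in saline, so the 3G9 mice lay below every mouse of the other arms. Against saline this gene was lower by -0.49 ± 0.13 (SE; adjusted p = 0.0388, edgeR). DESeq2 called each of these 4 genes between the treated arms, and so did limma with library weights. The genes were chosen for their small p in these same libraries, so these calls and the separation of the arms are not separate support.

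How far the bleomycin response remained with αvβ6 blocked was read from genes chosen in other mice. In whole lung of batch S135, 2 bleomycin mice against 3 saline mice, all given vehicle as the control treatment, gave 61 genes raised and 18 lowered of 15598 tested (0.506%; 0.391% and 0.115%). The median log2 fold changes were 1.42 and -0.89 in those mice. Both bleomycin mice were male, while saline mouse 146 was female and the other saline mice male. Sex was not a term in that fit. None of the S151 libraries entered that choice. In S151, 60 of the raised genes were tested. With 3G9, 38 of the 60 were called higher than saline, 63.3% against 5.47% of all genes, and none was called lower. In 59 of them the fold change was positive, the median log2 fold change was 1.18 against -0.03 over all genes, and 47 were separated completely upward, 78.3% against 12%.

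The bleomycin control arm gave similar values for the same 60 genes, with 33 called higher (55% against 2.32% of all genes) and 1.27 as the median log2 fold change. Set directly against each other, the treated arms differed by a median of 0.08 on the log2 scale, with 35 genes higher and 25 lower with 3G9 and none called. The 95% interval contained 0 in 51 of the 60 genes. It lay wholly within 2-fold in either direction in 47 of the 60, and in 53 it excluded a 2-fold loss with 3G9.

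By mouse, the median position of the raised genes above the saline mean was 1.31 in 3G9 mouse 218, 1.08 in 219, 1.01 in 226R and 0.89 in 228 on the log2 scale of CPM plus 0.5. The bleomycin control mice stood at 1.13 in 204, 0.94 in 206, 1.16 in 208R and 1.28 in 225. The arms overlapped, at 1.07 ± 0.18 (SD, n = 4) with 3G9 and 1.13 ± 0.14 (SD, n = 4) in the control. The saline mice lay between -0.09 and 0.20, below every bleomycin-exposed mouse. The shares of all counts taken by the 61 genes were 0.846% to 0.930% with 3G9, 0.888% to 1.23% in the bleomycin control and 0.412% to 0.584% in saline.

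**Figure D5:**
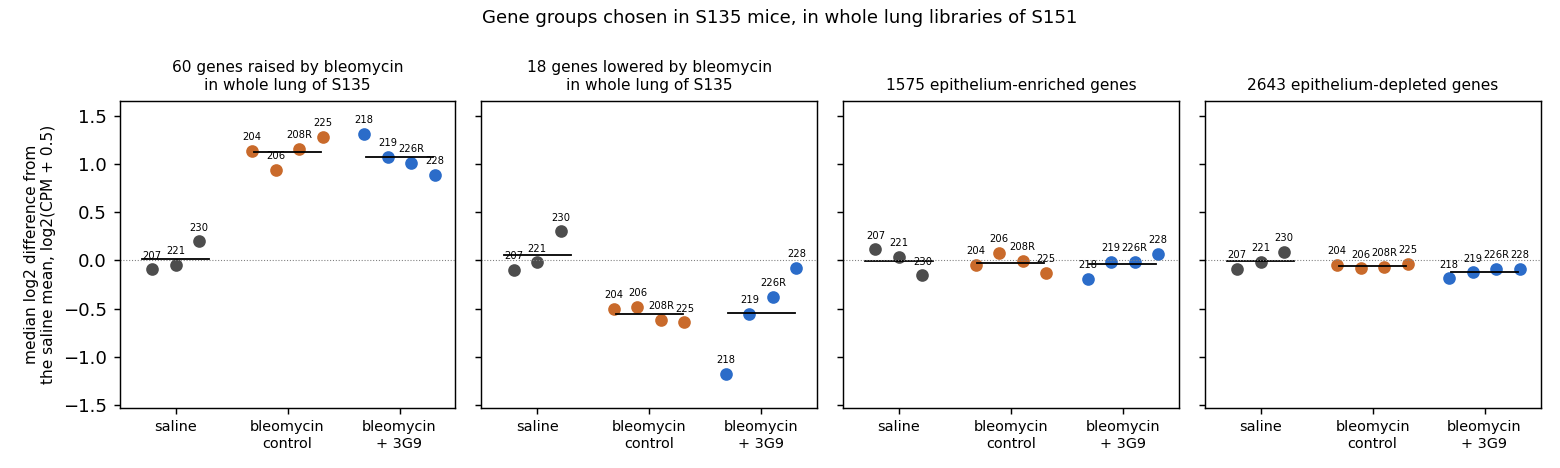
Median log2 difference from the saline mean over the genes of each group (y axis, on log2 of CPM plus 0.5) in each whole lung library of batch S151, by arm, with 1 point per mouse and a line at the arm mean. The genes raised by bleomycin in S135 stand above saline in all 8 bleomycin-exposed mice (0.89 to 1.31). The epithelium-enriched and epithelium-depleted genes lie between -0.19 and 0.11 in every mouse, and the depleted genes lie below 0 in all 8.

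The 18 genes lowered in S135 gave a smaller difference. With 3G9, 2 of the 18 were called lower (11.1% against 1.61% of all genes), all 18 had a negative fold change with a median of -0.63, and 7 were separated completely downward (38.9% against 9.32%). In the bleomycin control 2 were called and the median was -0.60. The 3G9 mice varied widely, at -1.18 in mouse 218, -0.55 in 219, -0.38 in 226R and -0.08 in 228, and the last lay within the saline range of -0.10 to 0.30. The bleomycin control mice lay between -0.64 and -0.48. No gene was called between the treated arms, and the 95% interval lay within 2-fold in 17 of the 18.

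The choice of these groups rested on few S135 mice. Without S135 bleomycin mouse 148 the raised group held 265 tested genes with a median of 0.17 in the 3G9 comparison and 47 called higher. Without bleomycin mouse 149 it held 468, with a median of 0.94 and 242 called higher, and without saline mouse 146 it held 2, of which 1 was called. The lowered group held 444 genes with 53 called lower without bleomycin mouse 149, and 1 gene, called lower, without saline mouse 146. Without either of the remaining S135 saline mice no tested gene was left in either group. Saline mouse 146 was the only female among these S135 mice, and the part of sex in the choice was not tested. Among the S151 libraries, leaving out saline mouse 207 or saline mouse 221 gave 21 of the 60 raised genes called, and the fit of the 7 libraries of 3G9 and saline alone gave 23. None of the 18 lowered genes was called without saline mouse 207 or 221, without 3G9 mouse 218 or 219, or in that fit of 7, 1 was called without control mouse 208R, and 7 without 3G9 mouse 228.

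Genes raised by bleomycin in the epithelium of the same S135 mice were also higher in whole lung with 3G9. Of 143 such genes, 88 were called higher (61.5% against 5.47% of all genes) and none lower. Their median on the log2 scale was 1.05. In the bleomycin control 73 were called higher (51% against 2.32%) and the median was 1.02, and no gene was called between the treated arms, where the median was 0.08. The group shares 25 genes with those raised in whole lung. Its 88 called genes became 33 without saline mouse 207, 33 without saline mouse 221 and 46 in the fit of 7 libraries. Of 70 genes lowered in S135 epithelium, 5 were called lower with 3G9 (7.14% against 1.61% of all genes) and 1 was called higher, with a median of -0.51. In the bleomycin control 3 were lower (4.29% against 0.407%) and the median was -0.64. None of the 70 was called lower with 3G9 without saline mouse 207 or 221, without 3G9 mouse 218 or 219, or in the fit of 7 libraries. The number was 1 without 3G9 mouse 226R, 3 without control mouse 204 or 208R, 8 without saline mouse 230 and 24 without 3G9 mouse 228.

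Of the groups that mark the compartment, epithelium-enriched genes stayed near the shares of all genes, while epithelium-depleted genes leaned slightly lower. Among 1575 epithelium-enriched genes, 82 were higher (5.21%) and 28 lower (1.78%) with 3G9, near the shares of all genes (5.47% and 1.61%), and the median log2 fold change was -0.05. Among 2643 epithelium-depleted genes, 197 were higher (7.45%) and 97 lower (3.67%) and the median was -0.16, against 61 higher, 21 lower and a median of -0.11 in the bleomycin control. The control's shares were 2.31% and 0.795%, where 2.32% and 0.407% of all genes passed. Depleted genes were 15.2% of the genes tested and 97 of the 280 lower genes. Of the 2643, 1064 had a positive fold change with 3G9 and 1579 a negative one. By mouse, their median position ran from -0.186 to -0.0839 with 3G9 and from -0.0843 to 0.0907 in saline, so the arms overlapped. Without saline mouse 230 the median log2 fold change was -0.04. The counts of called genes in both groups shifted with single libraries. Enriched genes called higher numbered 17 without saline mouse 221, 20 without saline mouse 207, 30 without 3G9 mouse 219, 47 without control mouse 208R and 48 without 3G9 mouse 218. Those called lower numbered 1 to 13 without saline mouse 207 or 221, 3G9 mouse 218 or 219, or control mouse 204 or 208R, 78 without 3G9 mouse 228 and 80 without saline mouse 230. Depleted genes called higher numbered 38 without saline mouse 207, 46 without saline mouse 221, 94 without 3G9 mouse 219 and 388 without 3G9 mouse 228. Those called lower numbered 12 to 62 without saline mouse 207 or 221, 3G9 mouse 218 or 219, or control mouse 204 or 208R, and 210 without 3G9 mouse 228.

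The epithelium of the same 7 mice was used to ask where the response to bleomycin with 3G9 differed between compartments. In epithelium 480 genes were higher and 144 lower against saline, of 15532 tested (4.02%; 3.09% and 0.927%). The difference between the compartments was tested gene by gene with each mouse as a block. Of 17203 genes, 16 passed (0.093%), and at an unadjusted p under 0.05 there were 1715. Of the 16, 10 had a log2 fold change higher in epithelium (0.0581% of all tested) and 6 a lower one (0.0349%). A higher value can also be a smaller decrease, so the sign does not rank the size of the response. Epithelium-depleted genes, 15.3% of those tested here, made up 7 of the 10 and 2 of the 6. As a whole these genes took 3.13% to 4.63% of the epithelial counts with 3G9 and 2.31% to 3.03% in saline, without overlap, and the part of that share in the result was not tested. Without the mouse block 2 genes passed. Leaving out saline mouse 207 gave 2 genes, 3G9 mouse 219 gave 4 and 3G9 mouse 226R gave 5.

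ENSMUSG00000051811 was raised in epithelium. Normalised over both compartments, its epithelial levels were 5.68, 7.70 and 8.77 CPM in saline and 47.0, 62.7, 40.7 and 39.1 CPM with 3G9, without overlap. In whole lung it stood at 9.95, 12.2 and 9.69 CPM in saline and 12.6, 19.0, 15.6 and 12.9 CPM with 3G9, separated by a much smaller margin. The response was larger in epithelium by 2.18 ± 0.23 (SE, log2; adjusted p = 0.00292, edgeR).

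ENSMUSG00000040026 showed the opposite order. In whole lung it rose from 4.84, 10.03 and 4.57 CPM in saline to 679.4, 177.1, 295.8 and 71.1 CPM with 3G9. In epithelium the saline mice already measured 31.4, 73.3 and 11.4 CPM, and the 3G9 mice, at 387.0, 125.0, 43.1 and 23.1 CPM, overlapped them. The response was smaller in epithelium, with a difference of -3.73 ± 0.50 (SE, log2; adjusted p = 0.0145, edgeR). This call was lost without the mouse block (adjusted p = 0.662), without saline mouse 207 (adjusted p = 0.106) and without 3G9 mouse 218 (adjusted p = 0.101). ENSMUSG00000061397, the first of the printed decreases in whole lung, was also among the 16. Its decrease was smaller in epithelium, with a difference of 3.54 ± 0.39 (SE, log2; adjusted p = 0.00292, edgeR). Its log2 fold change in epithelium alone was -1.16 (adjusted p = 0.275) against -4.37 in whole lung.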

How the data were processed

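Whole-number counts per gene were deposited by the authors as 1 table of 42548 Ensembl genes and 48 libraries. Reads were aligned with STAR 2.5.2b to GRCm38, per the submitters' processing notes, and the counting program and the annotation were not given in the sources used here. No column was left unused (0). No identifier matched the reference table of 49997 genes, so 33 lists of gene symbols, the cell type markers and the sequences were not used.

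The 11 whole lung libraries of batch S151 were fitted with edgeR 4.0.16 in R 4.3.3 (limma 3.58.1; TMM scaling, filterByExpr, robust quasi-likelihood test, arm as the only term), and a gene was called at a Benjamini-Hochberg adjusted p under 0.05. The standard error is the absolute log2 fold change over the square root of F. DESeq2 1.42.0, limma voom with quality weights and further settings were run as alternatives. The self-test used simulated counts. Printed genes were the first by size of change among called genes separated completely between the arms with at least 5 CPM in the higher arm. For the direct comparison of the treated arms and for the compartments they were those with the smallest p in each direction, a choice made after their values were seen, as was ENSMUSG00000061397 there. Compartment groups were called in saline mice of S135, at least 2-fold. The members, groups and lists were chosen with earlier results of these data known.

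Epithelial and whole lung libraries carry the same mouse number because each mouse gave both. Within mice, the departures of whole lung and epithelial libraries from the group means correlated at a median of 0.313 (0.151 to 0.621 over 11 mice). No correlation between different mice is set beside these values, so they do not test the pairing. Total counts per library limit the precision of scarce genes, since genes under 1 CPM rest on few reads.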

Additional observations from a re-analysis of the deposited data

Results flagged for a closer look

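Single values in 3 genes stood far from the other mice of their arm among 42 sets of values checked, where chance alone marks about 1 in 20. ENSMUSG00000060183 reached 13.9 CPM in bleomycin control mouse 225, against 1.03 CPM or less in the other mice of that arm. ENSMUSG00000094356 reached 0.434 CPM in bleomycin control mouse 204, against 0.150 to 0.161 CPM in the others. ENSMUSG00000038400 reached 92.2 CPM in 3G9 mouse 226R, against 72.9 to 74.7 CPM in the others.

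The response to bleomycin with 3G9 differed between the compartments in 16 genes, by the interaction of arm with compartment in edgeR. Among them ENSMUSG00000051811 responded more in epithelium, by 2.18 on the log2 scale, in 4 of 4 mice above the saline range. ENSMUSG00000040026 responded less in epithelium, with an interaction of -3.73.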

How the results depend on the processing

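Counts of genes moved with the tool and the libraries, while the direction of each printed gene was kept in every setting run for it. For 3G9 against saline, 1233 genes became 2557 with DESeq2, 6174 with limma and library weights, 388 in a fit of the 7 libraries alone and 2018 with all 24 whole lung libraries, and 250 to 2255 when 1 library was left out. Of the 1233, 1232 were also called by DESeq2, 1229 by limma, 1020 with all 24 libraries and 386 with the 7 alone. For the bleomycin control, 476 became 1291, 4668 and 1962 with DESeq2, limma and all 24 libraries, and 87 to 973 without 1 library. Between the treated arms, 0 became 120, 361 and 38 in the same settings, 1 with sex as a covariate, and 0 to 1 without 1 library. The S135 raised genes called with 3G9 numbered 23 in the fit of 7 libraries. They numbered 1 to 242 without 1 library, with medians of 0.17 to 1.33. The ranges for both S135 groups cover only the choices that left a tested gene. The lowered genes called, 2 of 18, became 6 with DESeq2, 10 with limma, 0 with the 7 libraries, 6 with all 24, 1 with sex and 0 to 53 without 1 library, with medians of -1.60 to -0.46. The difference between compartments gave 2 genes with no replicate block, against 16 with the mouse block, and 2 to 23 without 1 mouse. The cause of these shifts was not tested. The fit of 7 libraries and those without 1 library hold fewer samples, and leaving out 1 library moved counts both down and up.

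The share of higher genes among those called with 3G9 was 77.3%, and it was 65.4% with DESeq2, 48.6% with limma and 88.4% with the 7 libraries. The 4 genes printed for the direct comparison of the treated arms were called by DESeq2 and by limma, and not in edgeR's own settings other than those of all 24 libraries (ENSMUSG00000020641, ENSMUSG00000038400 and ENSMUSG00000029675) and of sex (ENSMUSG00000029675). The alternative without a list of liver genes was not run, because the list holds symbols. In its place the S135 groups were chosen without 146 genes abundant only in batch S061, a setting added after seeing the data. It removed none of the 60 raised and 18 lowered genes tested, so the values could not change and it tested nothing. The S135 choices without 1 library and the compartment settings were also added after seeing the data. Without either of the other 2 S135 saline mice no tested gene was left in either group.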
